A study of Rattus norvegicus with 4 samples.

Results

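Cytosolic ribosomal protein genes encode the proteins of the large and small subunits of the ribosome that translates nuclear messages. They were taken as the genes whose only symbol in the array's annotation is Rpl or Rps followed by a digit (S6 kinase genes left out), or Rplp0, Rplp1, Rplp2 or Rpsa. Where a gene had several probe sets, the one with the highest mean over the arrays stood for it. This gave 43 of the 4736 genes that the array names by 1 symbol, of which 28 belong to the large subunit, 14 to the small subunit and 1, Rplp0, to the stalk. Rplp1 and Rplp2 had no probe set of their own under this rule. Of the 43 genes, 37 carry the standard name of a ribosomal protein, 4 carry a paralog name (Rpl3l, Rpl19l4, Rpl36al1 and Rps27l) and 2 are pseudogenes (Rps2-ps1 and Rps4x-ps9).

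Expression was measured on Affymetrix rat arrays, which give 1 intensity per probe set, in the cortex of the stroke hemisphere of ovariectomised female rats. The middle cerebral artery had been closed from inside the vessel for 2 h, in animals given 17beta-estradiol replacement and in animals given placebo. Each of the 4 arrays carried the pooled RNA of 3 animals, with 2 pools and 6 animals per treatment. The pools are called estradiol pool 1 and 2 and placebo pool 1 and 2. Ovariectomy and stroke were shared by both groups, and strain, age and the time of tissue collection are not stated in the array labels. The spread between pools includes the spread between arrays, and these cannot be told apart.

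Ribosomal proteins are needed in near-equal numbers, and their genes are among the most strongly transcribed in most cells. Their messages share a regulatory feature, the terminal oligopyrimidine tract: the message begins with a C that is followed by an unbroken run of C and T (U in the RNA). Through this tract, mTOR signalling and the RNA-binding protein Larp1 control translation of the whole family together. The arrays read the amount of each message and not its translation.

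The tract was read from the rat sequences around the annotated gene starts in RefSeq (assembly GRCr8), which held 36 of the 43 genes. These windows are shown for the stalk gene and for genes at the ends of the range of differences described below, because they show how the tract varies between members. Each window runs 5′ to 3′ on the gene's own strand from 10 bases before the annotated start, which is the 11th letter. Capitals mark the longest run that begins with C, has at least 4 further C or T, and begins within 20 bases of the start.
Rps24: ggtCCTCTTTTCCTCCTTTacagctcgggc
Rps10: gcacgCCCCTTCCTTTCCagcctccgcctc
Rps15: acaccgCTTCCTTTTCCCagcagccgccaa
Rplp0: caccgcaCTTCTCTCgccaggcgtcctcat
Rpl22: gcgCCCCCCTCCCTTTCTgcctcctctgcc
Rpl14: ggCCCTCTCCCTTCTCgctgagcgccgcca
Rpl26: gtcaacttacagaaccggaagtcgcatgta

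The Rps24 window lies at chr16:96507-96536 on the plus strand, Rps10 at chr20:5700725-5700754 and Rps15 at chr7:10068096-10068125 on the minus strand. Rplp0 lies at chr12:46718371-46718400 on the minus strand, and Rpl22 at chr5:168117951-168117980, Rpl14 at chr8:129163610-129163639 and Rpl26 at chr10:54109682-54109711 on the plus strand. Of the 7 genes shown, Rpl26 held no run of this kind, and in the other 6 its length ranged from 8 bases in Rplp0 to 16 in Rps24.

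A C at the annotated start itself, followed by at least 4 bases that are each C or T on the sense strand, was found in 11 of the 36 ribosomal protein genes (30.6%). The share was 2.63% of all 27457 RefSeq gene starts in the same table. A run of this kind beginning anywhere within 20 bases of the start was found in 29 of 36 (80.6%), against 48.0% of all starts. In the whole 300-base windows, CCGGAAG, the core bound by ETS family factors such as GABP, stood on either strand in 9 of 36 genes (25%), against 9.22% of all. AAGATGG, which is part of the YY1 motif and can overlap a start codon, stood on either strand in 8 of 36 (22.2%), against 7.30%. Over the 19005 protein-coding starts alone, the shares in the same order were 2.44%, 47.8%, 11.2% and 7.58%. Annotated starts can miss the start used in a tissue, so a window without a run says only that the letters are not there.

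Ribosomal protein genes were mostly bright on these arrays. Of the 43 genes, 41 passed the filter on dim probe sets, a mean intensity of 37.5 over the 4 arrays, and 31 of these had a mean of 500 or more. Rps29, a small zinc-binding protein of the small subunit, had intensities of 6658 and 6401 in the estradiol pools and 7417 and 5895 in the placebo pools. The values overlapped between treatments, with the highest and the lowest both in placebo pools. Rpl5, which joins Rpl11 and a ribosomal RNA in a particle that can inhibit Mdm2, and Rps2-ps1 did not pass the filter. Rpl5 read 6.90 and 30.8 in the estradiol pools and 27.2 and 15.2 in the placebo pools. Rps2-ps1 read 25 and 28.6, and 9.10 and 6.00. All 8 values lay below the brightest foreign control of their array (30.1 to 37.8). These are dim probe sets and give no level for the messages.

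No ribosomal protein gene differed between estradiol and placebo past the threshold. Differences are given as log2(intensity + 16) with estradiol minus placebo, with the standard error (SE) of a limma fit across all 5244 probe sets that passed the filter. With Benjamini-Hochberg adjustment in limma, 0 of 41 genes and 0 of 5244 probe sets (0.0%) had an adjusted p below 0.05, and the adjusted p was 0.998 for each of the 41. At an unadjusted p below 0.05, 1 gene was higher (Rpl3l) and 1 lower (Rps24), 2.44% each, against 1.74% and 1.33% of all tested probe sets, or 3.07% in either direction. Both estradiol pools lay above both placebo pools for 6 of the 41 genes (14.6%, against 15.4% of all tested) and below them for 7 (17.1%, against 14.3%), and 29.7% of all tested probe sets were apart in either direction. These shares are close to those of all probe sets.

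The differences of the family lay close to 0. Of the 41 genes, 18 (43.9%) had a log2 difference above 0 and 23 (56.1%) below, against 51.6% and 48.4% of all tested probe sets. The median was -0.04, against 0.01 over all tested probe sets. Over the 775 probe sets with a mean of 500 or more, 59.4% lay below 0, with a median of -0.05. For the middle of the family, from the lower to the upper quartile, differences ran from -0.18 to 0.08, against -0.16 to 0.19 for all tested probe sets. On the probe sets that stood for them, all 31 bright genes lay within 0.45 of 0. The median depended on the placebo pools: it was 0.04 without placebo pool 1, with 22 genes above 0, and -0.13 without placebo pool 2, with 10 above 0. The exact permutation test for 1 gene cannot go below p = 0.333 with 2 pools against 2.

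**Figure D1:**
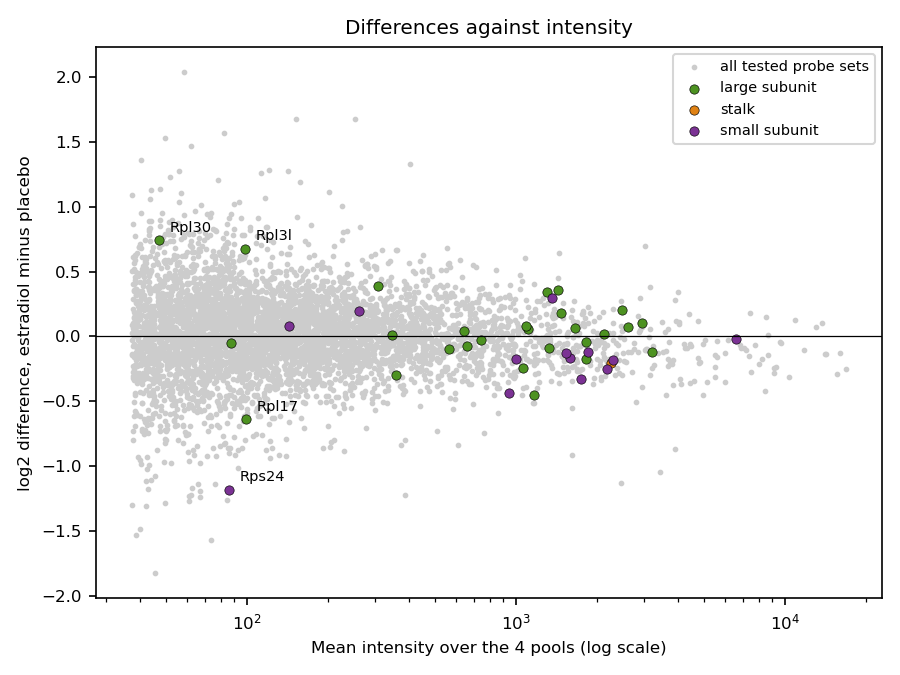
The log2 difference between estradiol and placebo (y axis) is plotted against the mean intensity over the 4 pools (x axis, log scale) for all 5244 tested probe sets in grey and the 41 ribosomal protein genes in colour. The bright genes lie within 0.45 of 0, and the 4 labelled genes with the widest differences are dim, with mean intensities below 100.

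Most small-subunit genes had values below 0. Of 13 tested, 10 lay below 0 (76.9%), with a median of -0.16. Below 0 were 48.4% of all tested probe sets and 59.4% of the 775 with a mean of 500 or more. Of the 11 with standard names 10 lay below 0, the exception being Rps6, the target of the S6 kinases. The large subunit had 15 of 27 above 0 and a median of 0.02. The difference between the subunits was not tested. The median of the small subunit was -0.08 after quantile normalisation and -0.20 after median centring, and that of the large subunit was 0.04 and -0.01. Without placebo pool 1 the small-subunit median was -0.04, with 9 of 13 below 0, and without placebo pool 2 it was -0.27, with 12 below 0. Of the 11 standard-name genes, 8 lay below 0 without estradiol pool 2. The 15 tested small-subunit probe sets with several symbols, described below, had 11 below 0 and a median of -0.18. After quantile normalisation 8 of these 15 lay below 0, and without placebo pool 1 they turned to 9 above 0 and a median of 0.06. Between the first pools of each treatment, all 13 small-subunit genes were lower with estradiol, with a median of -0.26. So were 31 of the 41 genes, 424 of the 775 probe sets with a mean of 500 or more and 2466 of all 5244. Between the second pools 8 of 13 were lower, with a median of -0.12, against 436 of the 775 and 2614 of all 5244. Pools of the same number are not assumed to be paired, and placebo pool 1 held the highest value in 9 of the 13 genes.

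**Figure D2:**
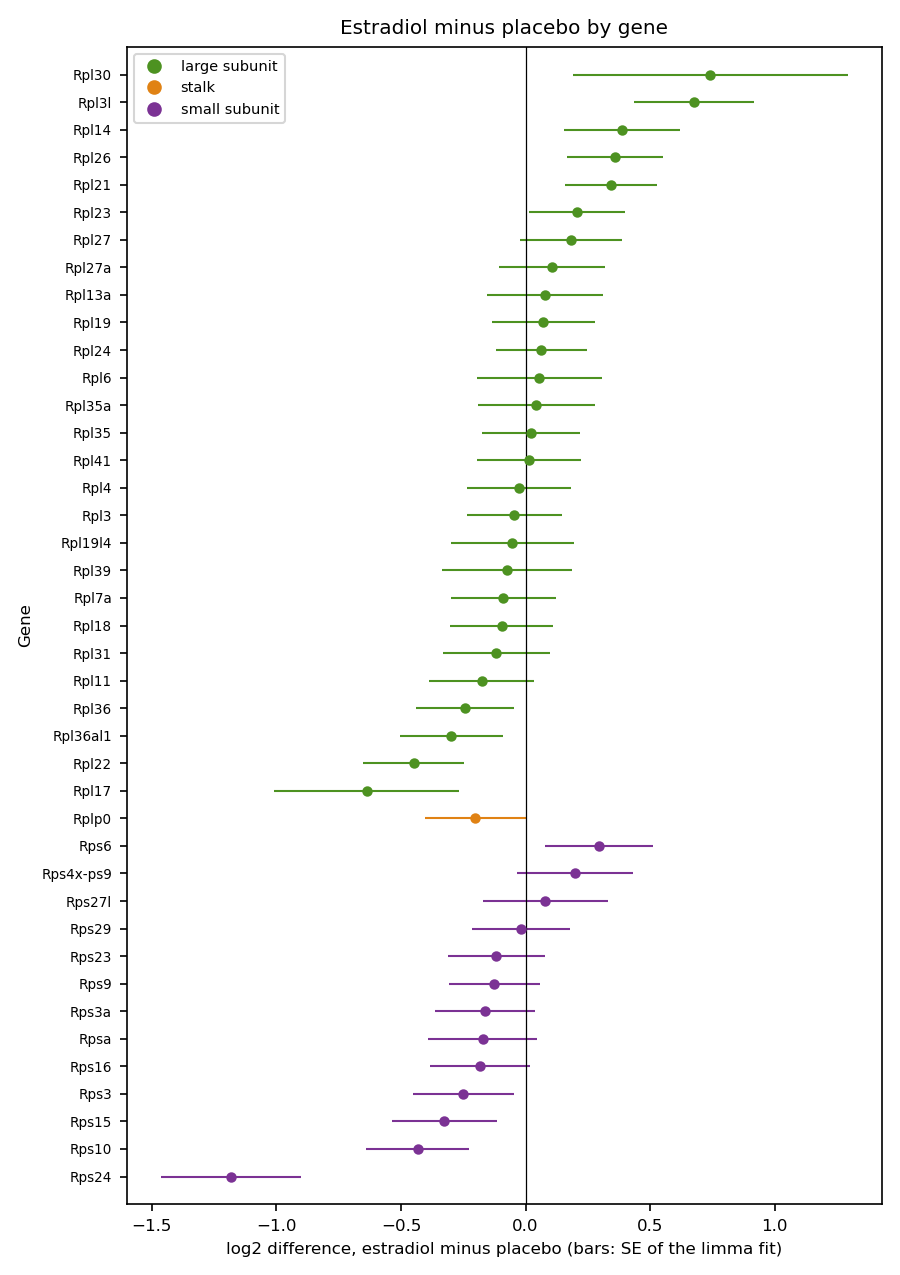
Points give the log2 difference, estradiol minus placebo, of each of the 41 tested ribosomal protein genes, with bars for the SE of the limma fit, ordered within the large subunit, the stalk and the small subunit. Of the 41 genes, 37 lie within 2 SE of 0, and Rps24 has the lowest value, -1.18.

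Rps24, a small-subunit protein whose gene is mutated in some patients with Diamond-Blackfan anaemia, had the lowest value. Its intensities were 55.4 and 37.9 in the estradiol pools and 111 and 140 in the placebo pools, so all placebo values were the higher. The means were 46.6 ± 12.4 (SD, n = 2) and 126 ± 20.5 (SD, n = 2), a log2 difference of -1.18 ± 0.28 (SE, limma adjusted p = 0.998). Estradiol pool 2 was at the level of its brightest foreign control, 37.8. The difference was -0.78 with an offset of 64 in place of 16. A second probe set from the same source sequence, which the annotation gives several symbols and which is therefore not assigned to a gene, read 1937 and 2116 under estradiol, against 2555 and 1668. On that brighter probe set the treatments overlapped, with a log2 difference of -0.03 ± 0.24 (SE).

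Other small-subunit genes at the low end were Rps10 and Rps15. Rps10, a protein near the entry of the message that is ubiquitinated when ribosomes collide, read 908 and 705 under estradiol, against 1087 and 1085 under placebo. The treatments did not overlap, and the log2 difference was -0.43 ± 0.21 (SE), or -0.25 without estradiol pool 2. Rps15, needed for export of the small subunit from the nucleus, read 1704 and 1392 under estradiol, against 2155 and 1739 under placebo. The log2 difference was -0.33 ± 0.21 (SE), and the pools were apart by a narrow margin, between 1704 and 1739. It was -0.17 without placebo pool 1 and -0.18 without estradiol pool 2. Its other probe sets gave 0.15 and 0.28, so the direction was not shared within the gene.

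In the large subunit the low end was formed by Rpl17 and Rpl22. Rpl17, which lies by the exit of the peptide tunnel, read 106 and 46.7 under estradiol, against 150 and 95.6 under placebo, a log2 difference of -0.64 ± 0.37 (SE). The treatments overlapped, and the difference was -0.16 without estradiol pool 2, -0.35 without placebo pool 1 and -1.12 without estradiol pool 1. Rpl22, a large-subunit protein that also binds other RNAs, read 1082 and 893 under estradiol, against 1432 and 1270 under placebo. These did not overlap, and the log2 difference was -0.45 ± 0.20 (SE), from -0.59 without estradiol pool 1 to -0.31 without estradiol pool 2.

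The high end was held by large-subunit genes. With the offset of 16, Rpl30 had the highest value, 0.74 ± 0.55 (SE), from readings of 79.2 and 40.6 under estradiol, against 59.0 and 9.70 under placebo. Placebo pool 2 lay below the background, and without it the difference was -0.03. It was 0.37 without estradiol pool 1, 1.12 without estradiol pool 2 and 1.51 without placebo pool 1. With an offset of 64 it was 0.36, below Rpl3l at 0.47, and with an offset of 1 it was 1.19, so neither its size nor its rank was settled. Rpl3l, the paralog of Rpl3 known from striated muscle, read 117 and 133 under estradiol, against 68.1 and 76.2 under placebo. These did not overlap, with a log2 difference of 0.68 ± 0.24 (SE, limma adjusted p = 0.998), between 0.59 and 0.76 with 1 pool left out. Its other probe set was too dim to be tested, at 29.4 and 24.9, against 13.4 and 14.6. Rpl3 itself, with 1792 and 1806 against 1715 and 2009, overlapped between treatments, with a log2 difference of -0.04 ± 0.19 (SE).

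Rpl14, Rpl26 and Rpl21 also had both estradiol pools above both placebo pools. Rpl14 read 319 and 384 under estradiol, against 304 and 228 under placebo, a log2 difference of 0.39 ± 0.23 (SE), or 0.19 without placebo pool 2 and 0.58 without placebo pool 1. Rpl26, a tunnel-exit protein that also binds p53 message, stood at 1599 and 1644 against 1376 and 1154, a log2 difference of 0.36 ± 0.19 (SE), or 0.23 without placebo pool 2. Rpl21, whose gene is mutated in a hereditary hair loss, read 1418 and 1514 against 1146 and 1160, a log2 difference of 0.34 ± 0.18 (SE). In both Rpl26 and Rpl21, other probe sets of the gene fell on the other side of 0: -0.14 for Rpl26, and 0.07, -0.14 and -0.23 for Rpl21.

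The stalk gene Rplp0, whose protein anchors the acidic P1 and P2 proteins that recruit elongation factors, read 2157 and 2022 under estradiol, against 2729 and 2119 under placebo. The treatments overlapped, with a log2 difference of -0.20 ± 0.20 (SE), or -0.02 without placebo pool 1 and -0.38 without placebo pool 2. Rpsa, the small-subunit protein also known as the laminin receptor precursor, stood at 1070 and 822 against 1166 and 963. It overlapped too, with -0.17 ± 0.22 (SE), or 0.01 without estradiol pool 2, -0.04 without placebo pool 1, -0.31 without placebo pool 2 and -0.36 without estradiol pool 1.

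Probe sets of 1 gene often differed in direction. Of the 43 genes, 17 had more than 1 probe set, and in 15 genes at least 2 were tested. In 8 of these 15 all tested probe sets shared the sign, and in 7 they did not. The range between a gene's probe sets had a median of 0.16 on the log2 scale. It was widest in Rps15 (0.61), Rpl21 (0.57), Rpl26 (0.50) and Rpl6 (0.25), a large-subunit gene whose probe sets gave 0.05 and -0.19. In Rpl24 and Rps29 it was 0.0029 and 0.0056. RefSeq lists loci named as pseudogenes or numbered copies for all 37 genes of standard name, from 1 for Rpl41 to 26 for Rpsa with a median of 15, so signal from near-identical copies cannot be told apart from that of the named gene.

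**Figure D3:**
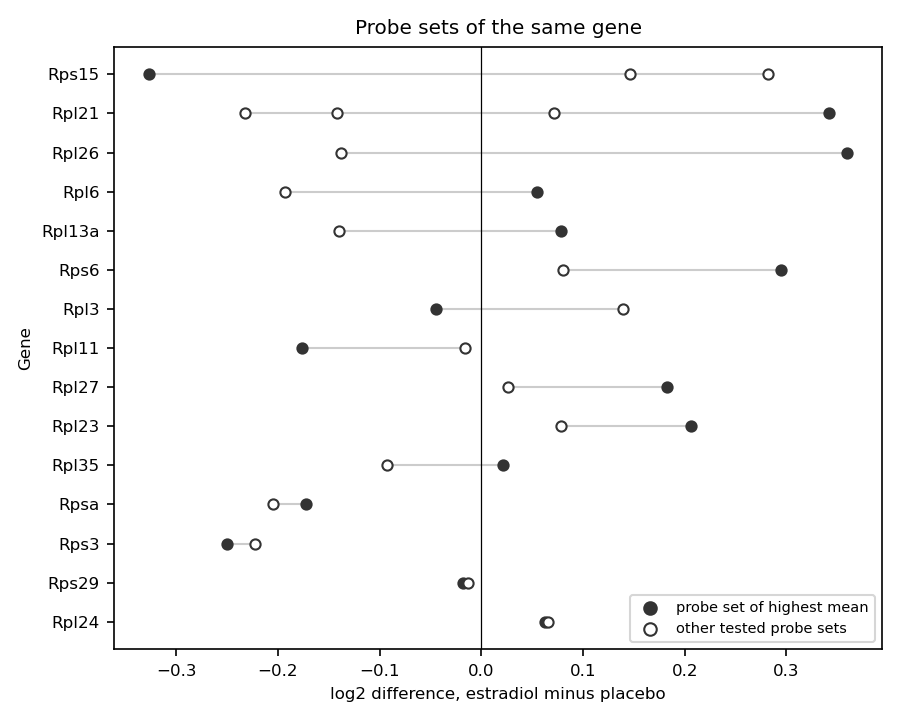
Each row is 1 of the 15 genes with more than 1 tested probe set, and points give the log2 difference, estradiol minus placebo, of each probe set, filled for the probe set of highest mean. Rps15, Rpl21 and Rpl26 span the widest ranges and cross 0, and both probe sets of Rps29 lie at -0.02 and -0.01.

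The values of the family varied between the pools of placebo. Placebo pool 1 held the highest of the 4 values in 22 of the 41 genes (53.7%), against 23.0% of all tested probe sets and 32.1% of the 775 with a mean of 500 or more. Placebo pool 2 held the lowest value in 17 genes (41.5%), against 22.8% of all tested. Relative to each gene's mean, the family's median was 0.17 in placebo pool 1, -0.08 in placebo pool 2, -0.03 in estradiol pool 1 and -0.02 in estradiol pool 2. After quantile normalisation, placebo pool 1 held the highest value in 15 of 41 genes (36.6%) and estradiol pool 2 in 16, so this count moved with the scaling.

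Within placebo, 34 of 41 genes (82.9%) were brighter in pool 1 than in pool 2, with a median log2 difference of 0.25, against 45.3% and -0.04 over all tested probe sets. That median was 0.20 after quantile normalisation and 0.29 after median centring. Within estradiol, 17 of 41 (41.5%) were brighter in pool 1, with a median of -0.03. Rpl11, the partner of Rpl5 named above, shows the pattern, with 1696 and 1727 in the estradiol pools and 2248 and 1668 in the placebo pools. The dim Rps24 probe set had its highest value in placebo pool 2, whereas the brighter probe set of the same source sequence was highest in placebo pool 1 and lowest in placebo pool 2.

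**Figure D4:**
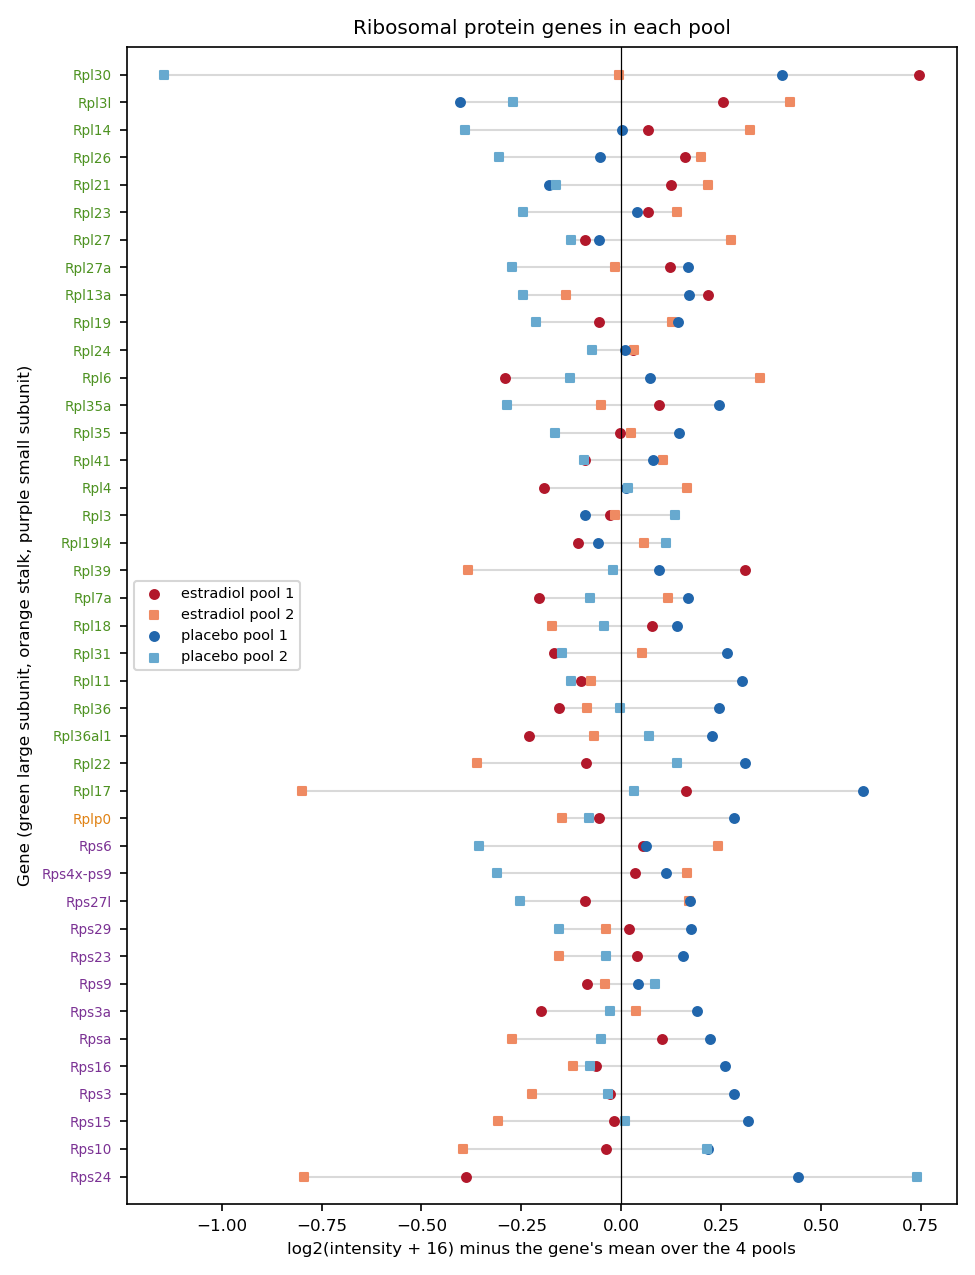
Each row is 1 ribosomal protein gene, and the 4 points give log2(intensity + 16) in each pool minus the gene's mean over the pools. Placebo pool 1 (dark blue circles) is rightmost in 22 of 41 genes, whereas the estradiol pools (red and orange) lie on both sides.

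Ribosomal probe sets that the annotation gives several symbols, mostly of a ribosomal protein gene and its pseudogenes, were not used above and showed the same pool pattern. There were 40, of which 38 were tested. Placebo pool 1 held the highest value in 27 of the 38 (71.1%) and placebo pool 2 in 0, and 36 of 38 (94.7%) were brighter in placebo pool 1 than in placebo pool 2, with a median of 0.29. Between treatments, 14 lay above 0 and 24 below, with a median of -0.07, and 0 passed the limma adjusted threshold, with 2, both lower, at an unadjusted p below 0.05 (5.26%, against 1.33% of all tested probe sets in that direction). The lowest had a log2 difference of -0.52 ± 0.19 (SE) and came from the same source sequence as the Rpl7a probe set. It read 563 and 575 under estradiol, against 863 and 786 under placebo, without overlap. The Rpl7a probe set itself overlapped between treatments and gave -0.09 ± 0.21 (SE). The several-symbol probe sets come from the same 4 arrays, so they widen the set of probe sets and not of samples.

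**Figure D5:**
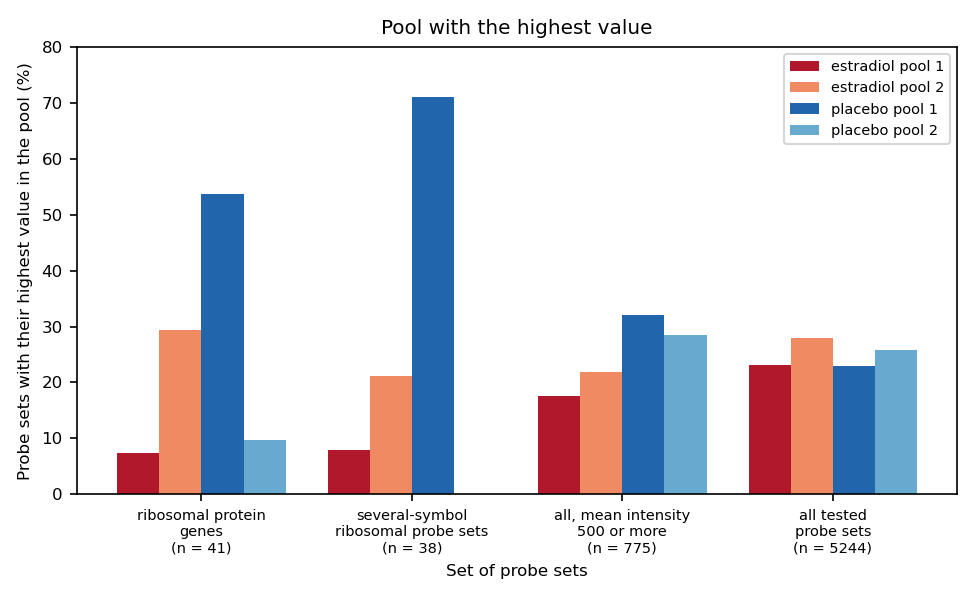
Bars give the percentage of probe sets whose highest value of the 4 lies in each pool, for the 41 ribosomal protein genes, the 38 several-symbol ribosomal probe sets, the 775 probe sets with a mean intensity of 500 or more and all 5244 tested. Placebo pool 1 holds 53.7% and 71.1% in the ribosomal sets, against 32.1% and 23.0% in the others.

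Several other readings had their highest or lowest value in placebo pool 1. The control probe set for 5S ribosomal RNA read 133 and 98.5 in the estradiol pools and 191 and 119 in the placebo pools. The summed intensity of 8 choroid plexus and meninges markers was 13040 in placebo pool 1 and 1383 in placebo pool 2, against 2395 and 7061 with estradiol. That of 5 oligodendrocyte markers was 20390 and 13090, against 16350 and 12390, and that of 10 neuron markers was 9169 and 12840, against 10260 and 11020. For 7 astrocyte markers the sums lay between 10820 and 12120, and for 5 blood markers between 1872 and 6173. For 8 markers of microglia, macrophages and lymphocytes they lay between 846 and 1247. Each of these lists had its highest sum in placebo pool 1. No marker of any list was at 0 on all arrays. Of the neuron markers, Snap25, a vesicle fusion protein, read 1959 to 3001. Blood and striatum markers also leaned to 1 side between treatments, and 0 of them passed the limma adjusted threshold. All 5 blood markers had both estradiol pools below both placebo pools, against 14.3% of all tested probe sets, with a median log2 difference of -0.88. For 6 striatum markers the sums were 1254 and 1395 under estradiol, against 526 and 612. Of the 5 tested, 4 had both estradiol pools above both placebo pools, against 15.4% of all tested, with a median log2 difference of 1.23. Adora2a overlapped between treatments, at -0.03 ± 0.26 (SE), and Drd2, at background on all arrays, was not tested. The 3′ to 5′ ratio of GAPDH control probe sets lay between 1.30 and 1.45. That of actin lay between 1.28 and 1.58 and that of hexokinase between 3.08 and 4.35, both highest in estradiol pool 2. The part of these readings in the ribosomal values was not tested, and in pooled tissue fewer cells of a type and less RNA per cell cannot be told apart.

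Genes with and without a tract at the annotated start overlapped in their differences between treatments, and the contrast between them was not tested. The 11 tested genes with it had a median log2 difference of -0.12, with 7 below 0, and the 24 tested genes with a sequence but without it had -0.04, with 13 below 0. The ranges overlapped, from -0.64 to 0.39 and from -1.18 to 0.68. For a run beginning within 20 bases of the start, the 28 tested genes with it had a median of -0.11, with 18 below 0. The 7 tested genes with a sequence but no such run had 0.05, with 2 below 0. Their values, from -0.18 to 0.36, lay inside the range of the 28, from -1.18 to 0.68, and this contrast was not tested either. Among genes of standard name, such a run was found in 9 of 9 of the small subunit and 17 of 23 of the large. The split by run thus overlaps the split by subunit.

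Of the tested genes in 7 lists of proteins that work with the ribosome, 0 passed the adjusted threshold in limma, and 1 (Rictor) had an unadjusted p below 0.05, against 3.07% of all tested probe sets. Of 15 tested genes of translation initiation, 9 lay above 0 and 6 below, with a median of 0.03, or -0.12 without estradiol pool 2 and -0.03 without placebo pool 2. Eif4h, a helper of the helicase that unwinds messages, had 0.20 ± 0.20 (SE), and Eif4e, which binds the cap, had 0.17 ± 0.24. Eif2b3, a subunit of the exchange factor that recharges the initiator complex, had -0.58 ± 0.26, but its other probe sets gave 0.17 and -0.02. Eif4e2, a cap-binding relative of Eif4e, had -0.25. The scaffold Rack1 of the small subunit read 699 and 690 under estradiol, against 689 and 739 under placebo, a log2 difference of -0.04 ± 0.19 (SE).

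Of 5 tested elongation factors and nascent-chain proteins, 3 lay above 0, with a median of 0.10. With 1 array left out, the median ran from 0.03 without estradiol pool 2 to 0.18 without estradiol pool 1. With the mean of all tested probe sets of each gene it was -0.17, so its sign was not settled. Eef1a1, which delivers aminoacyl-tRNA and whose message also carries the tract, read 973 and 1192 under estradiol, against 881 and 754 under placebo, a log2 difference of 0.40 ± 0.21 (SE). Its other, dimmer probe set gave -0.91, so the gene has no settled direction. Naca, a nascent-chain protein, had 0.16, Eef1a2, the form of neurons and muscle, had -0.24 ± 0.35 (SE), and Eef2, the translocase, -0.12 ± 0.18.

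Of 11 tested ribosome biogenesis genes, 8 lay above 0, with a median of 0.15. The median was -0.0047 without estradiol pool 2 and 0.03 without placebo pool 1, so the lean above 0 rested on those pools. Those above 0 included Ubtf, the activator of ribosomal RNA transcription, with 0.36 ± 0.40 (SE), and Nop58, a nucleolar protein of small RNA particles, with 0.30 ± 0.24. Ubtf was dim and overlapped between treatments, at 52.4 and 37.9 under estradiol, against 21.4 and 43.6 under placebo. Its value in placebo pool 1 lay below the brightest foreign control of that array, 37.8. Polr2f, a subunit shared by the RNA polymerases, had -0.36 ± 0.24, but another, dimmer probe set of the gene gave 0.01. Ddx21, a nucleolar helicase, had -0.27. Of 10 tested genes of S6 kinase and mTOR signalling, 7 lay above 0, with a median of 0.14. The median was -0.0018 without placebo pool 2, 0.03 without estradiol pool 1 and 0.24 without placebo pool 1. Rictor, a subunit of the second mTOR complex, read 87.9 and 112 under estradiol, against 53.4 and 61.9 under placebo, a log2 difference of 0.65 ± 0.27 (SE). Myc, a factor that drives ribosome production, had 0.40. Mtor had 0.26 ± 0.22 and Rps6kb1, an S6 kinase, 0.28 ± 0.30, while Akt1, a kinase upstream of mTOR, had -0.24 ± 0.20 and Tsc2, an inhibitor of mTOR signalling, -0.07.

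Mitochondrial ribosomal proteins, which build the separate ribosome of mitochondria, gave 9 of 14 above 0 and a median of 0.04, which was -0.01 without placebo pool 1, 0.03 without estradiol pool 2, 0.15 without estradiol pool 1 and 0.19 without placebo pool 2. Their ends were formed by Mrpl52 at 0.34 ± 0.31 (SE) and Mrpl40 at 0.33, and by Mrps11 at -0.13 ± 0.36 and Mrpl58 at -0.10. Of 4 tested aminoacyl-tRNA synthetase genes, 2 lay above 0, with a median of 0.01, from -0.16 without estradiol pool 2 to 0.20 without estradiol pool 1. Vars1 had 0.33 and Tars1 0.03, Farsa -0.02 and Kars1 -0.07. For comparison, 51.6% of all tested probe sets lay above 0.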

How the data were processed

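The deposited values are intensities on a linear scale, 1 per probe set and array, which the authors brought to a common level: trimmed means of the 4 arrays lay between 150.18 and 150.20. A name for the software was not given in the sources used here. After removal of 59 controls from 8799 rows, 8740 probe sets remained, of which 7006 had 1 symbol in the platform annotation. Array medians lay within 0.056 on the log2 scale (limit 0.1), so the deposited values were used unscaled.

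Intensities were taken as log2(value + 16), and probe sets below the 40th percentile of mean intensity (37.5) were left out, which left 5244. Treatments were compared with limma 3.58.1 in R 4.3.3 (lmFit, eBayes with trend, two-sided, 2 residual and 5.63 prior degrees of freedom), with Benjamini-Hochberg adjustment over all 5244 and a threshold of 0.05. The script was tested on simulated data. Background is the brightest of 23 bacterial, yeast and mouse control probe sets per array. Tables and plots used Python 3.11.15, pandas 2.3.3 and matplotlib 3.10.9. With 4 arrays, their number limits the precision. The labels give separate pools of animals, so the residual error of a probe set is the spread between pools, which includes that between arrays. The p-values rest on this error after limma draws it toward the trend over all tested probe sets.

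The members, gene lists and alternatives were chosen with earlier results of these data known. Named genes were the 5 highest and 5 lowest differences, genes with an unadjusted p below 0.05, Rplp0, Rpsa and Rps24, the 4 genes whose probe sets differed most, the 3 of widest range over the arrays, those below the filter, and the extremes of each other list. Others were chosen after their values were seen: Rps29, Rpl11, Rpl3, Rpl24, Rpl41, Rps6, Mtor, Rps6kb1 and Snap25. The alternatives tried were an offset of 1 or 64, testing every probe set, a stricter filter (60th percentile), quantile normalisation, median centring, a fit without the trend, a block for the pool number, the mean of a gene's probe sets, and each array left out. Chosen after seeing the data were standard-name genes alone, genes with a mean of 500 or more, and several-symbol probe sets. RefSeq identifiers matched 42 of 43 genes. Protein sequences were not used here.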

Additional observations from a re-analysis of the deposited data

How the results depend on the processing

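In each alternative refitted over all probe sets with limma, 0 ribosomal protein genes and 0 probe sets passed the adjusted threshold. The mean of a gene's probe sets gave differences with no test, and the alternatives chosen after seeing the data only changed which probe sets were counted. The count of genes at an unadjusted limma p below 0.05 was 2 of 41 in the main setting. It was 4 of 43 without the filter and 4 of 41 with the replicate block. It was 3 after quantile normalisation, 3 after median centring, 1 among standard-name genes alone and 0 among genes with a mean of 500 or more. With 1 array left out, that count ran from 1 to 3, but the lone pool of a treatment was then assumed to vary like the pools of the other. Genes above 0 ran from 10 to 22, genes below 0 from 19 to 31, and the family's median from -0.13 to 0.04, with both ends set by leaving out a placebo pool. Over all 5244 tested probe sets, those at an unadjusted limma p below 0.05 were 91 higher and 70 lower. They were 123 and 87 with the replicate block, 82 and 77 after quantile normalisation and 71 and 90 after median centring. Of 8740 without the filter they were 181 and 156, and of 3496 under the stricter filter 53 and 36. With 1 array left out, the higher ones ran from 59 to 145.

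Of 13 named and tested genes, 9 kept their sign in every alternative run, and Rpl30 has no value under the stricter filter. With 1 array left out, Rpl30 ran from -0.031 to 1.51, Rpsa from -0.36 to 0.0148 and Rpl6 from -0.26 to 0.37. With the mean of all probe sets of the gene, Rps15 turned to 0.034 and Rpl6 to -0.0691. The labels do not say that the pool number pairs arrays, and no pairing is assumed. Pool 1 minus pool 2 correlated between treatments with r = 0.036 over 5244 probe sets (0.328 over the 41 genes). With 2 pools per treatment, these correlations cannot show or exclude pairing. In this balanced layout a block cannot move a difference, only its error. No refitted alternative lowered the adjusted p of a named gene below 0.925.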
